A study of Macaca mulatta with 4 samples.

Results

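The genes described here encode chromatin remodelers and the enzymes that write and erase methyl groups on histone lysines. They are 53 of the 35395 genes in the deposited table, taken by gene symbol: 16 remodeler ATPases, 9 further subunits of the BAF complex, 17 genes of the lysine methyltransferase class and 11 lysine demethylases. Each symbol matched 1 Ensembl macaque gene ID, and all 53 passed the filter on low counts. RNA came from the amygdala of wild-type rhesus macaques (Macaca mulatta), an almond-shaped group of nuclei in the temporal lobe. The sevoflurane group was 1 female and 1 male library from macaques that inhaled about 2.5 to 3% of this halogenated ether anaesthetic for 4 hours at about postnatal days 7, 21 and 35, with tissue taken directly after the last of the 3 exposures. The control group was 1 female and 1 male library. The sources used here do not give what the controls breathed, their exact age, or whether a library held RNA of more than 1 animal. Nor do they say whether the libraries of the conditions were prepared together.

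Chromatin remodelers use ATP to slide, eject or exchange nucleosomes, and fall into the CHD, ISWI, SWI/SNF and INO80 families with the related ATRX. Histone methyltransferases and demethylases set methyl marks on lysines of histone H3, where marks on K4 and K36 accompany active genes and marks on K9 and K27 accompany silent ones. Several of these genes are known from human developmental brain disorders, and in neurons the BAF complex exchanges subunits as cells leave division.

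The libraries held 12477047 to 16293371 reads on genes. Members together took 0.639% and 0.556% of reads in the sevoflurane female and male, against 0.348% and 0.290% in the control female and male. Levels below are CPM (reads scaled to a common library size) after TMM scaling, which corrects for differences in RNA composition between libraries, and n is 2 libraries per condition. Neuronal markers were present in every library, but several differed in level between the conditions. SNAP25 was at 1961 and 2441 CPM in the sevoflurane libraries and at 2020 and 1542 CPM in the control libraries. MAP2 was at 992 and 1551 CPM in the sevoflurane libraries, against 14.5 and 7.82 CPM in the controls. SYT1 was at 841 and 815 CPM, against 36.2 and 7.37 CPM. RBFOX3 and TUBB3 were called lower, and NEFL was not called. The listed markers tell neurons from glia but do not by themselves set the amygdala apart from neighbouring tissue. One library stood apart in its makeup: TTR, which encodes transthyretin and marks the choroid plexus, was at 23.3 and 2.34 CPM in the sevoflurane female and male, against 11.6 and 17579.6 CPM in the control female and male.

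Most members that differed between the conditions were higher after sevoflurane. Of 53 genes, 27 rose, 4 fell and 22 were not called by edgeR's quasi-likelihood test at a Benjamini-Hochberg adjusted p under 0.05 over all genes. In the background of 15417 tested genes, 40.7% were called in either direction, 21.3% higher and 19.4% lower. The median log2 fold change was 1.02 over the members and 0.0040 over all tested genes. Both sevoflurane libraries lay above both control libraries for 39 members and below them for 5, where the background was 37.7% of tested genes above and 37.3% below. A fitted log2 fold change of at least 3 was found for 8 members, and for 8.61% of tested genes. When the test asked for a change of more than 2-fold, a rule added after seeing the data, 20 members were called higher and 1 lower, against 12.3% and 7.39% of all tested genes.

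**Figure D1:**
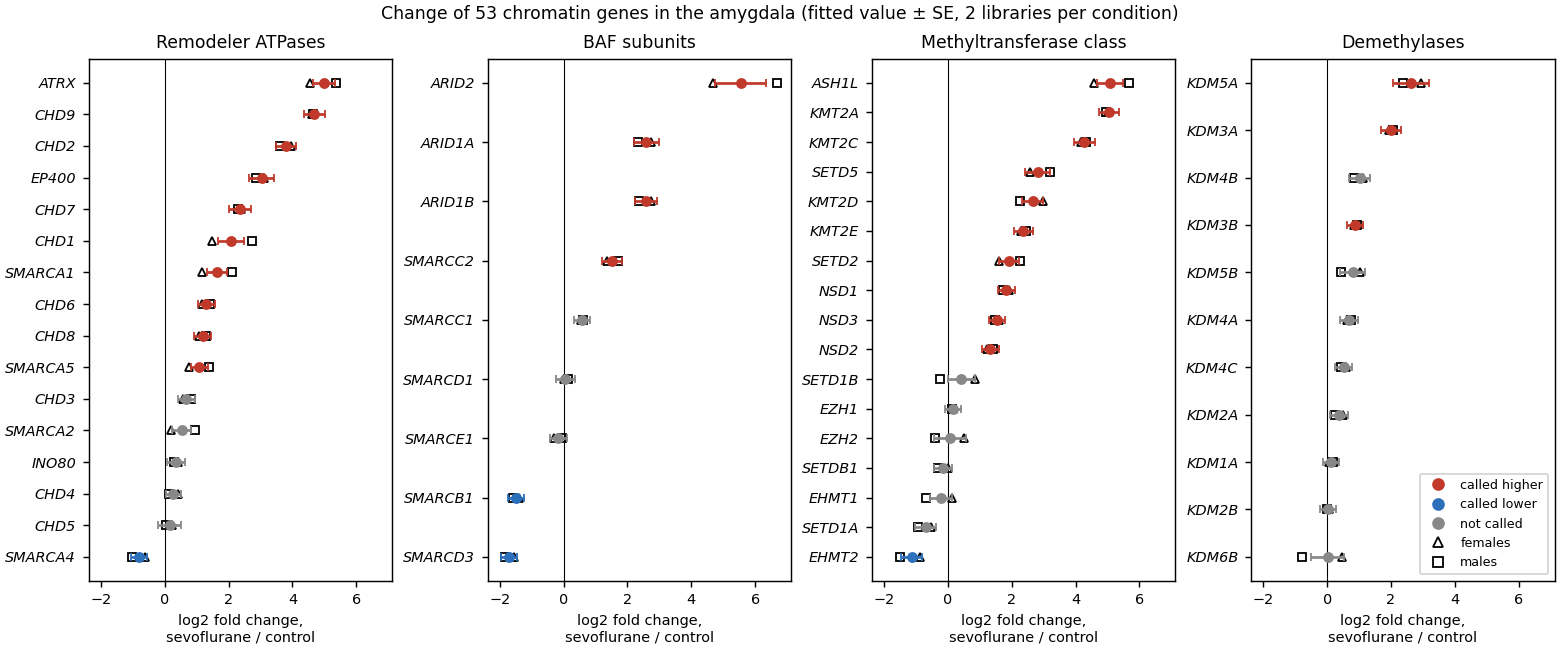
Log2 fold change, sevoflurane over control, of each of the 53 members in 4 panels by class, with fitted values as filled circles, their standard error as bars, and the change within females (triangles) and within males (squares). Red marks the 27 genes called higher, blue the 4 called lower and grey the 22 not called. ATRX, ARID2, ASH1L and KDM5A stand at the top of their panels.

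Other classes of RNA moved with the condition, and the members' values stand beside them. The 77 tested cytosolic ribosomal protein genes had 67 called lower, and the summed level of this class was 10516 and 10941 CPM in the sevoflurane libraries, against 29779.8 and 42352 CPM in the control libraries. Of 7 microglial markers 5 were called lower, with a summed level of 162 to 222 CPM in the sevoflurane and 393 to 434 CPM in the control libraries, and none at 0 in any library. Neuronal markers were split, with 2 of 6 called higher and 2 lower. Their sums were 5077 to 5894 CPM in the sevoflurane and 3699 to 3726 CPM in the control libraries. Single genes moved further than the sums. MAP2 and SYT1 rose by 6.82 ± 0.50 and 5.24 ± 0.77 (SE) on the log2 scale, and RBFOX3 and TUBB3 changed by −1.04 and −1.46. Astrocyte markers had 1 of 6 called higher and 2 lower, with sums of 2885 to 3699 CPM and 3535 to 4010 CPM. SLC1A2 rose by 4.30 ± 0.41 (SE), while GFAP and ALDH1L1 changed by −2.53 ± 0.43 and −1.16 ± 0.36. Among 5 oligodendrocyte markers 1 was called higher, and the sums were 2834 to 3701 CPM in the sevoflurane and 1375 to 5944 CPM in the control libraries. Of the smaller lists, 1 of 3 precursor, 1 of 4 endothelial, 1 of 3 pericyte and 1 of 5 amygdala genes were called higher. Called lower were 1 endothelial, 1 pericyte, 1 of 3 choroid plexus and 1 of 1 red blood cell genes. The excitatory, inhibitory, ependymal and proliferation markers were not called. The endothelial gene FLT1 was at 39.9 and 48.4 CPM in the sevoflurane libraries, against 2.35 and 0.355 CPM in the controls, while CLDN5 changed by −2.63 ± 0.29 (SE). Low control levels were thus not limited to the members. Without the control male library, which held the choroid plexus RNA, 21 members were called higher and 3 lower. The part of cell makeup, RNA quality and transcript class in the members' changes was not tested. In bulk tissue, fewer cells of a type and less RNA per cell cannot be told apart.

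The 16 remodeler ATPases gave 10 genes that rose (62.5%), 1 that fell (6.25%) and 5 that were not called. Over all tested genes 21.3% were called higher and 19.4% lower. The ATPases had a median log2 fold change of 1.24. Their summed level was 2622 and 2531 CPM in the sevoflurane female and male libraries, against 1721 and 1365 CPM in the control female and male. All 16 had the same direction of change in females and in males, as did 85.3% of all tested genes.

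ATRX, an X-linked ATPase that works with DAXX to place histone H3.3 at repeats and telomeres, rose most in this class. ATRX was at 161 and 227 CPM in the sevoflurane female and male, against 6.72 and 5.42 CPM in the control female and male. The control libraries were more than an order of magnitude below the sevoflurane libraries, and the log2 fold change was 4.99 ± 0.34 (SE) (adjusted p = 0.00141 by edgeR, higher in both sexes).

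In the CHD family, CHD9 and CHD2 rose most: CHD9 was at 75.9 and 67.7 CPM in the sevoflurane female and male, against 3.00 and 2.58 CPM in the control female and male, a log2 fold change of 4.68 ± 0.33 (SE). The level of CHD2 was 85.5 and 81.0 CPM in the sevoflurane female and male, against 5.41 and 6.57 CPM in the control female and male, a log2 fold change of 3.80 ± 0.30 (SE). CHD2 belongs with CHD1 to the subgroup that follows transcribing polymerase and binds histone H3 methylated at K4 through its chromodomains. For CHD1, the sevoflurane female and male libraries held 32.6 and 45.5 CPM, against 11.7 and 6.75 CPM in the control female and male, and its change of 2.08 ± 0.40 (SE) lost its call without the sevoflurane male library (edgeR adjusted p = 0.0536).

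CHD6, CHD7 and CHD8, the relatives of CHD9, rose by 1.30, 2.37 and 1.19 on the log2 scale. CHD7 is mutated in CHARGE syndrome and CHD8 is a frequently mutated gene in autism. CHD8 was at 115 and 108 CPM in the sevoflurane female and male, against 54.0 and 43.7 CPM in the control female and male. Both sevoflurane libraries were above both controls for each of these genes, and CHD6 and CHD8 lost their calls without the control male library (edgeR adjusted p = 0.0624 and 0.108).

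None of the NuRD-type ATPases CHD3, CHD4 and CHD5 was called. NuRD couples nucleosome remodeling to histone deacetylation, and CHD5 is its neuronal ATPase. The level of CHD3 was 608 and 554 CPM in the sevoflurane female and male, against 413 and 317 CPM in the control female and male, with a log2 fold change of 0.67 ± 0.27 (SE) (adjusted p = 0.0861 by edgeR) that was called with library totals as scaling. For CHD4, the sevoflurane female and male libraries held 203 and 189 CPM, against 154 and 172 CPM in the control female and male, with a change of 0.26 ± 0.24 (SE). CHD5 measured 412 and 236 CPM in the sevoflurane female and male, against 355 and 228 CPM in the control female and male, with a change of 0.15 ± 0.37 (SE). The CHD5 groups overlapped, and in both conditions the female library was the higher one.

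Both ISWI ATPases, which space nucleosomes evenly, were called higher. SMARCA1 was at 99.8 and 147 CPM in the sevoflurane female and male, against 44.6 and 33.9 CPM in the control female and male, with a log2 fold change of 1.65 ± 0.31 (SE) (adjusted p = 0.00891 by edgeR). The level of SMARCA5 was 146 and 199 CPM in the sevoflurane female and male, against 86.4 and 75.9 CPM in the control female and male, with a change of 1.09 ± 0.27 (SE) (adjusted p = 0.0226 by edgeR). In the mouse, SMARCA1 is the ISWI ATPase that accumulates in differentiated neurons and SMARCA5 that of dividing cells. The call of SMARCA5 held in 1 of 4 fits that each left out 1 library, and was lost without either control library and without the sevoflurane male.

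Of the exchangeable ATPases of BAF, SMARCA4 fell and SMARCA2 was not called. For SMARCA4, the sevoflurane female and male libraries held 123 and 96.4 CPM, against 188 and 194 CPM in the control female and male, a log2 fold change of −0.80 ± 0.26 (SE) (adjusted p = 0.0472 by edgeR). SMARCA2 measured 377 and 409 CPM in the sevoflurane female and male, against 329 and 213 CPM in the control female and male, a change of 0.54 ± 0.30 (SE) (adjusted p = 0.188 by edgeR). For SMARCA4 both sevoflurane libraries lay below both controls, and for SMARCA2 above them. The SMARCA4 call was a narrow one: it was lost without any 1 of the 4 libraries (edgeR adjusted p = 0.0521 to 0.164), with library totals as scaling (0.128) and with no filter on low counts (0.0524). Within a library the ratio of SMARCA2 to SMARCA4 reads was 3.06 and 4.25 in the sevoflurane female and male, against 1.75 and 1.10 in the control female and male. Such a ratio does not depend on the scaling between libraries, and its size also reflects transcript length, so only its change between libraries is read here.

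EP400, the ATPase of a complex that exchanges histone H2A.Z and holds the acetyltransferase TIP60, rose while INO80, after which its family is named, was not called. EP400 was at 46.5 and 31.3 CPM in the sevoflurane female and male, against 5.28 and 4.17 CPM in the control female and male, with a log2 fold change of 3.04 ± 0.38 (SE) (adjusted p = 0.00297 by edgeR). INO80 was at 36.8 and 31.7 CPM in the sevoflurane libraries, against 27.4 and 25.8 CPM in the controls, a change of 0.36 ± 0.29 (SE).

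**Figure D2:**
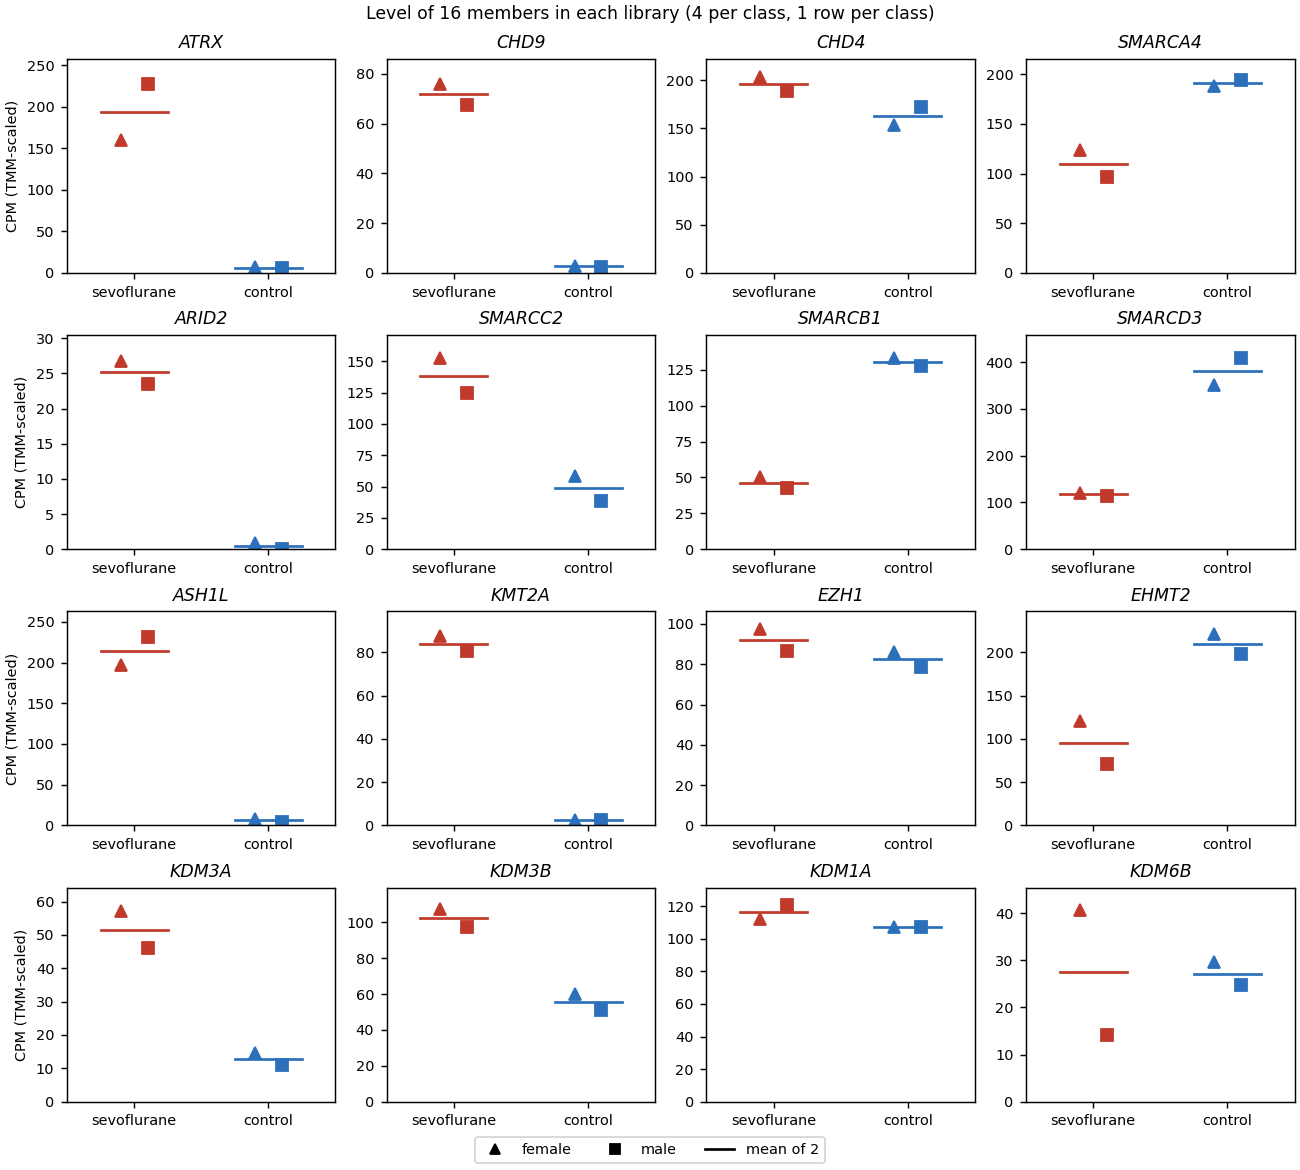
CPM after TMM scaling (linear axes from 0) of 16 members in each library, 1 row of 4 genes per class, with sevoflurane libraries in red on the left and control libraries in blue on the right, triangles for females, squares for males and a bar at the mean of 2. ATRX, CHD9, ARID2, ASH1L and KMT2A lie close to 0 in both controls, SMARCA4, SMARCB1, SMARCD3 and EHMT2 are lower in both sevoflurane libraries, and KDM6B spreads from 14.1 to 40.8 CPM within the sevoflurane pair.

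The BAF complex repositions and evicts nucleosomes at enhancers and promoters. Among its 9 subunits without ATPase activity, 4 rose (44.4%), 2 fell (22.2%) and 3 were not called. Over all tested genes 21.3% were called higher and 19.4% lower, so the share that fell was near the background. The median log2 fold change of these subunits was 0.57. Their summed level did not rise. It was 760 and 625 CPM in the sevoflurane female and male, against 764 and 770 CPM in the control female and male. The ARID subunits, DNA-binding proteins that define BAF subtypes, were the ones that rose most, and SMARCD3 and SMARCB1 were the ones that fell.

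ARID2, the signature subunit of the PBAF form, was close to absent from the control libraries. It had 424 and 343 reads in the sevoflurane female and male libraries, against 14 and 1 reads in the control female and male. In scaled units this was 26.8 and 23.6 CPM in the sevoflurane libraries, against 0.913 and 0.0888 CPM in the controls. The log2 fold change was 5.54 ± 0.81 (SE) (adjusted p = 0.00411 by edgeR). It rests on few control reads. The ratio of scaled reads was 44.8 with both controls (exact binomial 95% interval 26.98 to 80.4), 27.7 without the control male library (16.4 to 50.8) and 284 without the control female, where 1 control read is left (50.9 to 11249), and these intervals cover counting error only.

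ARID1A and ARID1B, mutually exclusive subunits of canonical BAF, rose by nearly the same amount. ARID1A was at 145 and 78.0 CPM in the sevoflurane female and male, against 21.7 and 15.3 CPM in the control female and male, a log2 fold change of 2.59 ± 0.40 (SE). The level of ARID1B was 73.5 and 47.3 CPM in the sevoflurane female and male, against 11.0 and 9.15 CPM in the control female and male, a change of 2.58 ± 0.35 (SE). For both genes the sevoflurane female library was the highest of the 4, and the groups did not overlap. The ratio of ARID1A to ARID1B reads was 1.97 and 1.65 in the sevoflurane female and male, against 1.98 and 1.67 in the control female and male, so it differed less between the conditions within a sex than between the sexes.

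Of the scaffold pair, SMARCC2 rose and SMARCC1 was not called. For SMARCC2, the sevoflurane female and male libraries held 152 and 125 CPM, against 58.6 and 38.2 CPM in the control female and male, with a log2 fold change of 1.51 ± 0.31 (SE) (adjusted p = 0.0113 by edgeR, but 0.0593 by the same test without the control male library). SMARCC1 measured 59.0 and 62.2 CPM in the sevoflurane female and male, against 40.6 and 40.9 CPM in the control female and male, with a change of 0.57 ± 0.25 (SE) (adjusted p = 0.115 by edgeR). With library totals as scaling SMARCC1 was called (edgeR adjusted p = 0.0471). The ratio of SMARCC1 to SMARCC2 was 0.387 and 0.499 in the sevoflurane libraries, against 0.693 and 1.07 in the controls.

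SMARCD3 and SMARCB1 fell, and their calls held without any 1 library. SMARCD3 was at 121 and 114 CPM in the sevoflurane female and male, against 351 and 409 CPM in the control female and male, a log2 fold change of −1.70 ± 0.25 (SE) (adjusted p = 0.00434 by edgeR, lower in both sexes). The level of SMARCB1 was 50.3 and 42.3 CPM in the sevoflurane female and male, against 133 and 128 CPM in the control female and male, a change of −1.50 ± 0.25 (SE) (adjusted p = 0.00629 by edgeR, lower in both sexes). SMARCD3 is a subunit enriched in heart and neurons, and SMARCB1 a core subunit lost in rhabdoid tumours. SMARCD3 was the 1 member called lower by more than 2-fold. Another protein-coding gene, DERL3, overlaps SMARCB1 in the RefSeq annotation, so its count may hold reads of both.

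SMARCD1, the paralogue of SMARCD3, was not called. For SMARCD1, the sevoflurane female and male libraries held 71.1 and 55.5 CPM, against 71.2 and 50.3 CPM in the control female and male, a log2 fold change of 0.059 ± 0.30 (SE) with overlapping groups. SMARCE1, a subunit with an HMG box, changed by −0.16 ± 0.26 (SE) and its groups overlapped too. The ratio of SMARCD1 to SMARCD3 was 0.589 and 0.488 in the sevoflurane female and male, against 0.203 and 0.123 in the control female and male.

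Among the 17 genes of the methyltransferase class, 10 rose (58.8%), 1 fell (5.88%) and 6 were not called. Over all tested genes 21.3% were called higher and 19.4% lower. The median log2 fold change of the class genes was 1.54. Their summed level was 1592 and 1367 CPM in the sevoflurane female and male, against 668 and 598 CPM in the control female and male. Grouped by the mark that the enzymes write, all 5 writers of H3K36 methylation rose, as did 4 of 6 genes of the H3K4 group, while of the 5 writers of H3K9 and H3K27 methylation EHMT2 fell and the others were not called. These subgroups are small, hold only the writers among the members and were not compared by a test. Their background is the same 21.3% higher and 19.4% lower. Outside the members, the H3K9 writers SUV39H2 and PRDM2 were called higher, SUV39H1 lower and SETDB2 not called. The H3K4 writer KMT2B was not called.

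KMT2 proteins are the trithorax-type H3K4 methyltransferases. KMT2A, the gene rearranged in MLL leukaemia, had 1380 and 1177 reads in the sevoflurane libraries, against 39 and 28 reads in the controls. KMT2A was at 87.4 and 80.8 CPM in the sevoflurane female and male, against 2.54 and 2.49 CPM in the control female and male, a log2 fold change of 5.06 ± 0.32 (SE) (adjusted p = 0.00141 by edgeR). KMT2C, which with KMT2D marks enhancers with monomethylated H3K4, rose by less. The level of KMT2C was 152 and 121 CPM in the sevoflurane female and male, against 8.22 and 5.86 CPM in the control female and male, a change of 4.27 ± 0.33 (SE). Copies of part of KMT2C exist elsewhere in the human genome, so its reads may be shared with them. For KMT2D, the sevoflurane female and male libraries held 91.7 and 62.0 CPM, against 11.5 and 12.9 CPM in the control female and male, a change of 2.65 ± 0.33 (SE).

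KMT2E, a family member that reads methylated H3K4 and has no established methyltransferase activity of its own, also rose. KMT2E measured 161 and 130.4 CPM in the sevoflurane female and male, against 32.8 and 23.5 CPM in the control female and male, a log2 fold change of 2.37 ± 0.30 (SE) (adjusted p = 0.00298 by edgeR). The calls of all 4 KMT2 members held without any 1 library. Relative to KMT2E, KMT2A stood at a ratio of 0.544 and 0.620 in the sevoflurane libraries, against 0.0775 and 0.106 in the controls, whereas the ratio of KMT2D to KMT2E overlapped between the conditions.

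The SETD1 pair, catalytic subunits that place most trimethylated H3K4 at promoters, was not called. SETD1A was at 26.7 and 17.0 CPM in the sevoflurane female and male, against 38.4 and 32.6 CPM in the control female and male, with a log2 fold change of −0.70 ± 0.34 (SE) (adjusted p = 0.146 by edgeR). The level of SETD1B was 40.9 and 18.6 CPM in the sevoflurane female and male, against 22.6 and 21.9 CPM in the control female and male, with a change of 0.42 ± 0.43 (SE) (adjusted p = 0.456 by edgeR). Both sevoflurane libraries were below both controls for SETD1A, while SETD1B was high in the sevoflurane female and lowest in the sevoflurane male.

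ASH1L, a trithorax-group enzyme that dimethylates H3K36, had the largest change of the class. For ASH1L, the sevoflurane female and male libraries held 197 and 232 CPM, against 8.09 and 4.44 CPM in the control female and male, a log2 fold change of 5.09 ± 0.40 (SE) (adjusted p = 0.00141 by edgeR, higher in both sexes). Reads numbered 3106 and 3378 in the sevoflurane libraries and 124 and 50 in the controls. Other annotated genes lie within ASH1L in the RefSeq annotation, so its count may hold some of their reads.

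SETD2, which trimethylates H3K36 along transcribed genes, rose by 1.92 ± 0.30 (SE) on the log2 scale. The NSD enzymes, which place mono- and dimethylated H3K36, all rose. NSD1 was at 115 and 97.4 CPM in the sevoflurane female and male, against 30.4 and 29.1 CPM in the control female and male, a change of 1.84 ± 0.26 (SE). The level of NSD2 was 71.3 and 67.2 CPM in the sevoflurane female and male, against 30.3 and 24.9 CPM in the control female and male, a change of 1.33 ± 0.27 (SE). For NSD3, the sevoflurane female and male libraries held 121 and 115 CPM, against 39.5 and 41.6 CPM in the control female and male, a change of 1.54 ± 0.25 (SE). No control library of these 3 genes reached a sevoflurane library, and NSD2 lost its call without the control male library (edgeR adjusted p = 0.0752). NSD1 is the gene of Sotos syndrome.

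SETD5, placed in this class by its SET domain, rose. SETD5 measured 124 and 101 CPM in the sevoflurane female and male, against 20.9 and 10.8 CPM in the control female and male, a log2 fold change of 2.82 ± 0.39 (SE) (adjusted p = 0.00362 by edgeR).

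Among the enzymes of repressive marks, EHMT2 (G9a), which dimethylates H3K9, fell. EHMT2 was at 121 and 70.4 CPM in the sevoflurane female and male, against 221 and 198 CPM in the control female and male, a log2 fold change of −1.13 ± 0.33 (SE) (adjusted p = 0.0341 by edgeR, lower in both sexes). The call was lost without the control female or the sevoflurane male library and with library totals as scaling (edgeR adjusted p = 0.0797, 0.110 and 0.0757). EHMT1, its partner in the same heterodimer, was not called. The level of EHMT1 was 43.5 and 24.7 CPM in the sevoflurane female and male, against 39.3 and 39.8 CPM in the control female and male, a change of −0.21 ± 0.35 (SE) with overlapping groups. The ratio of EHMT1 to EHMT2 was 0.360 and 0.350 in the sevoflurane libraries, against 0.178 and 0.201 in the controls.

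SETDB1, which trimethylates H3K9 at retroelements, was at 39.9 and 34.9 CPM in the sevoflurane libraries and at 39.7 and 43.4 CPM in the controls, a log2 fold change of −0.15 ± 0.27 (SE). EZH1 and EZH2 are the alternative catalytic subunits of the Polycomb complex PRC2, with EZH2 mostly in dividing cells. For EZH1, the sevoflurane female and male libraries held 97.4 and 86.4 CPM, against 86.2 and 78.8 CPM in the control female and male, a change of 0.16 ± 0.24 (SE). EZH2 measured 7.41 and 5.15 CPM in the sevoflurane female and male, against 5.15 and 6.84 CPM in the control female and male, a change of 0.068 ± 0.49 (SE). EZH2 had 75 to 117 reads per library, and its groups overlapped.

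The 11 demethylases gave 3 genes that rose and 8 that were not called, with a median log2 fold change of 0.67. The share called, 27.3%, was below the 40.7% of all tested genes, and the share called higher, also 27.3%, was near the background of 21.3%. All 11 fitted changes were above 0 with TMM and with library totals. Over all tested genes, 7731 were above 0 and 7686 below with TMM. The changes of KDM2B and KDM6B turned negative without some single libraries, and that of KDM6B also with sex as a term. In 9 of the 11 genes both sevoflurane libraries exceeded both controls, where the background was 37.7% of tested genes.

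KDM5A, which removes methyl groups from H3K4, had the largest change of the erasers. KDM5A was at 16.3 and 26.2 CPM in the sevoflurane female and male, against 2.02 and 4.97 CPM in the control female and male, a log2 fold change of 2.61 ± 0.56 (SE) (adjusted p = 0.0136 by edgeR). Each male library was above the female of its condition. Leaving out the control male library moved the change to 3.36. The call was lost when the sevoflurane male was left out (2.23, adjusted p = 0.0775 by edgeR). Its paralogue KDM5B was not called. The level of KDM5B was 122 and 61.6 CPM in the sevoflurane female and male, against 59.8 and 45.8 CPM in the control female and male, a change of 0.80 ± 0.38 (SE) (adjusted p = 0.137 by edgeR), which was called without the sevoflurane male library.

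KDM1A, the amine oxidase LSD1, which strips mono- and dimethylated H3K4 and has a neuronal splice form, was close to level. It stood at 112 and 121 CPM in the sevoflurane libraries and at 107 CPM in each control, and its log2 fold change was 0.12 ± 0.24 (SE).

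The H3K9 erasers KDM3A and KDM3B rose. For KDM3A, the sevoflurane female and male libraries held 57.1 and 46.0 CPM, against 14.7 and 11.0 CPM in the control female and male, a log2 fold change of 2.00 ± 0.32 (SE) (adjusted p = 0.00554 by edgeR). KDM3B measured 108 and 97.7 CPM in the sevoflurane female and male, against 60.1 and 51.2 CPM in the control female and male, a change of 0.88 ± 0.25 (SE) (adjusted p = 0.033 by edgeR). KDM3A is a target of hypoxia-inducible factor, and its call held without any 1 library. The call of KDM3B was lost without any 1 of the 4 libraries (edgeR adjusted p = 0.0701 to 0.231).

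The KDM4 enzymes, which act on trimethylated H3K9 and H3K36, were each higher in both sevoflurane libraries but not called. KDM4B was at 61.1 and 39.9 CPM in the sevoflurane female and male, against 27.9 and 22.0 CPM in the control female and male, a log2 fold change of 1.02 ± 0.34 (SE) (adjusted p = 0.0514 by edgeR). The level of KDM4A was 100.1 and 81.9 CPM in the sevoflurane female and male, against 65.0 and 49.0 CPM in the control female and male, a change of 0.67 ± 0.28 (SE). For KDM4C, the sevoflurane female and male libraries held 41.0 and 39.0 CPM, against 27.4 and 28.7 CPM in the control female and male, a change of 0.51 ± 0.28 (SE). KDM4B lay just outside the threshold and was called by DESeq2, with sex as a term, with either other filter, with library totals, and when the sevoflurane male was left out. KDM4A was called with library totals as scaling (edgeR adjusted p = 0.0487).

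KDM2A and KDM2B, which erase methylated H3K36 at CpG islands, were not called. KDM2A measured 140.4 and 101 CPM in the sevoflurane female and male, against 101 and 84.6 CPM in the control female and male, with a log2 fold change of 0.38 ± 0.28 (SE). KDM2B was at 55.2 and 50.6 CPM in the sevoflurane female and male, against 52.97 and 50.3 CPM in the control female and male, with a change of 0.035 ± 0.25 (SE), and its groups overlapped. KDM6B, an H3K27 demethylase induced by neuronal activity, spread widely between the sevoflurane libraries. It was at 40.8 and 14.1 CPM in the sevoflurane female and male, which enclosed both controls at 29.7 and 24.7 CPM, and its fitted change was 0.014 ± 0.51 (SE).

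**Figure D3:**
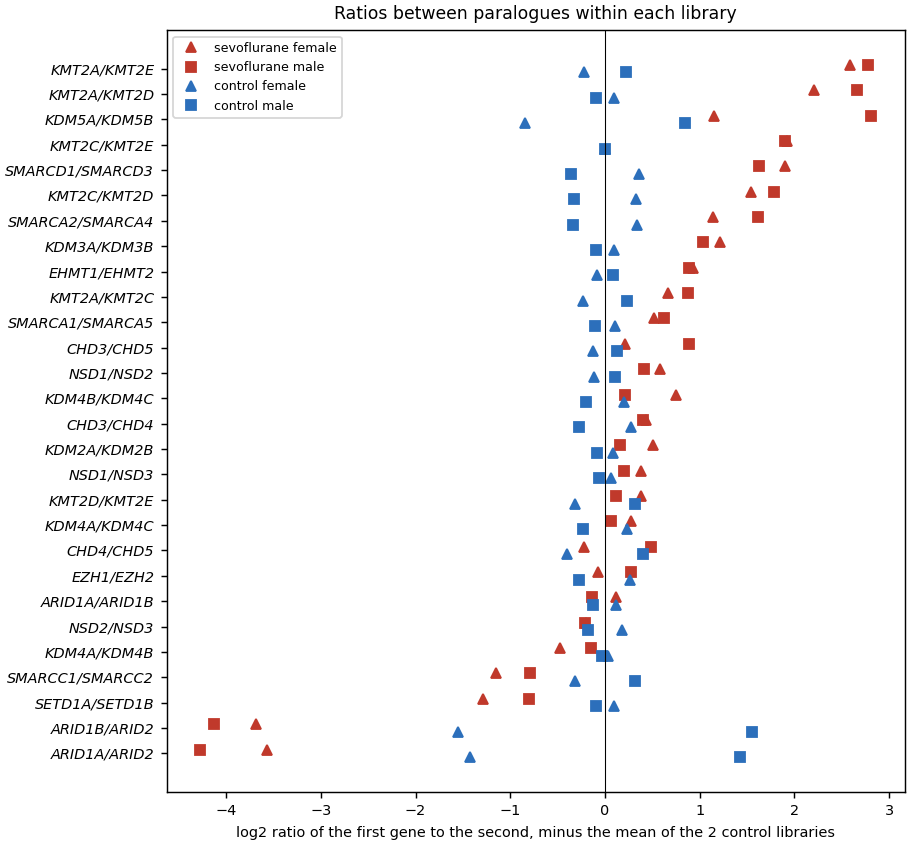
Log2 ratio of reads between paralogues within each library, drawn relative to the mean of the 2 control libraries, with sevoflurane libraries in red above control libraries in blue in each row, triangles for females and squares for males. KMT2A relative to KMT2E and SMARCD1 relative to SMARCD3 lie to the right of both controls in both sevoflurane libraries, SMARCC1 relative to SMARCC2 lies to the left, and ARID1A relative to ARID1B overlaps the controls.

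Paralogue ratios were read without a test, because 2 libraries against 2 cannot give an exact two-sided permutation p under 0.333. The ratio of KDM3A to KDM3B was 0.530 and 0.471 in the sevoflurane libraries, against 0.244 and 0.215 in the controls. For SMARCA1 to SMARCA5 it was 0.685 and 0.738 in the sevoflurane libraries, against 0.517 and 0.447 in the controls. The ratio of SETD1A to SETD1B was 0.653 and 0.915 in the sevoflurane libraries, against 1.70 and 1.49 in the controls. In these 3 pairs the conditions did not overlap, and in the pairs EZH1 with EZH2, KDM4A with KDM4C and CHD4 with CHD5 they did. Over all 28 pairs, many of which share a gene, the conditions did not overlap in 23. Lack of overlap was common for single genes too. Both sevoflurane libraries lay above both controls for 37.7% of tested genes and below them for 37.3%. The share for pairs of other genes was not computed.

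The changes within females and within males come from different libraries and can be set side by side. In 47 of 53 members (88.7%) both sexes changed in the same direction, where the value over all tested genes was 85.3%. The median log2 fold change over the members was 1.02 in females and 0.94 in males. CHD1 differed most between the sexes among the CHD genes, at 1.47 in females and 2.73 in males. With 1 library per sex and condition, the difference between the sexes in response has no replicate and was not tested.

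**Figure D4:**
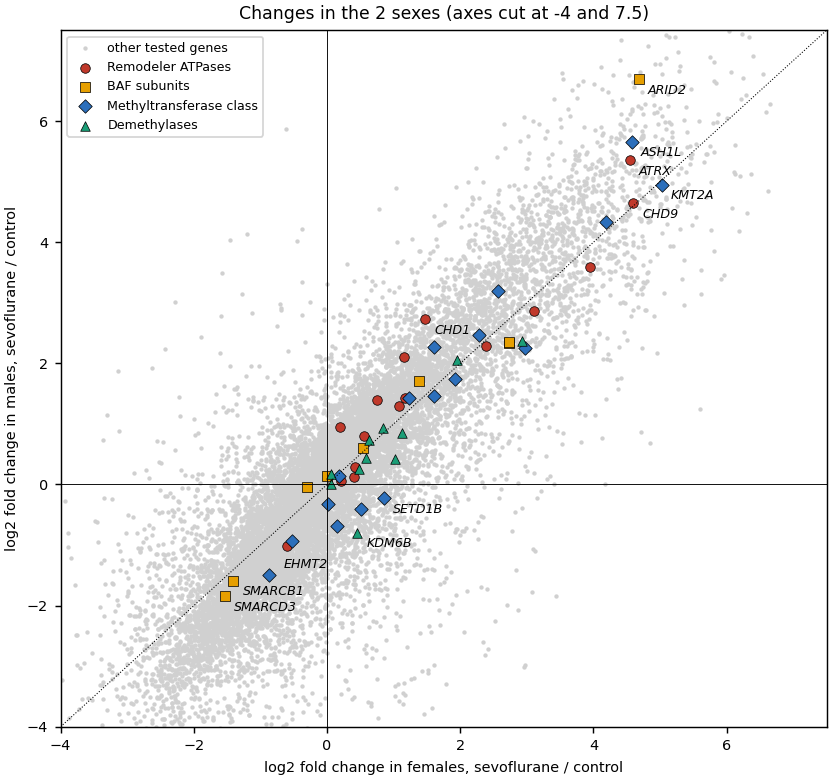
Log2 fold change, sevoflurane over control, within females (horizontal axis) and within males (vertical axis), with members coloured by class over all tested genes in grey. Axes end at −4 and 7.5, and the dotted line marks equal change. ARID2, ASH1L, ATRX, KMT2A and CHD9 lie far into the upper right, while KDM6B and SETD1B lie to the lower right, above 0 in females and below 0 in males.

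Males were also compared with females with condition kept as a term. Of the 53 members 0 were called by edgeR or DESeq2, against 1.84% of all tested genes called by edgeR. An unadjusted edgeR p under 0.05 was found for 5 members, and for 1673 of 15417 tested genes. The smallest edgeR adjusted p among the members was 0.324. Fitted values were lower in males for 41 members and higher for 12, and over all tested genes they were lower for 7938 and higher for 7479. The range over members was −0.89 (KDM6B) to 0.96 (KDM5A).

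The partners of these enzymes were examined as 120 further genes of the same complexes and families, of which 119 were tested. Of these, 32 were called higher (26.9%) and 22 lower (18.5%), near the background of 21.3% higher and 19.4% lower, with a median log2 fold change of 0.16. EZHIP, an inhibitor of PRC2, had 0 reads in all 4 libraries.

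Partners of the ISWI ATPases had the most calls upward, with 7 of 9 higher (77.8%). They are mostly bromodomain or PHD finger proteins that target the ATPase. BAZ2B rose by 4.48 ± 0.38 (SE) and BPTF, a subunit of NURF, by 3.03 ± 0.28 on the log2 scale. The genes not called were CHRAC1 and POLE3, both histone-fold proteins.

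Other BAF subunits were mixed, with 3 of 17 higher (17.6%) and 5 lower (29.4%). PBRM1, the polybromo protein of PBAF, rose by 4.17 ± 0.34 and DPF2 by 1.77 ± 0.41. BCL7C changed by −3.78 ± 0.36 and BCL7B by −1.69 ± 0.28. ACTL6B, the actin-related subunit specific to neurons, was also lower, at 48.0 and 32.8 CPM in the sevoflurane libraries, against 129 and 131 CPM in the controls.

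NuRD partners of CHD3 to CHD5 had 2 of 12 called higher (16.7%) and 1 lower (8.33%), both below the background. MTA3 rose by 3.07 ± 0.36 and GATAD2B by 2.40 ± 0.40. MBD3, the methyl-binding-domain subunit, was the one that fell. It was at 133 and 83.1 CPM in the sevoflurane libraries, against 646 and 973 CPM in the controls, a change of −2.91 ± 0.37.

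The complexes of INO80, SRCAP and TIP60 had 6 of 25 partners higher (24%) and 9 lower (36%). INO80D rose by 3.34 ± 0.70 and EPC1 by 3.30 ± 0.40. ZNHIT1 changed by −2.19 ± 0.29 and INO80E by −2.16 ± 0.32. TRRAP, a scaffold shared with other acetyltransferase complexes, rose as well (2.11 ± 0.33).

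COMPASS, the set of subunits that serve the KMT2 and SETD1 enzymes, had 3 of 12 genes higher and 3 lower, 25% each and near the background. NCOA6 rose by 1.43 ± 0.38 and RBBP5 by 1.21 ± 0.33. CXXC1, a subunit of the SETD1 complexes, changed by −1.66 ± 0.32 and DPY30 by −1.38 ± 0.31. The core subunit WDR5 was not called (−0.56 ± 0.25).

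PRC2 partners of EZH1 and EZH2 had 3 of 7 tested genes higher (42.9%) and 1 lower (14.3%). JARID2 rose by 2.52 ± 0.43 and MTF2 by 2.18 ± 0.32, and PHF1 fell (−1.31 ± 0.25).

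Further methyltransferases had 4 of 16 genes higher (25%) and 2 lower (12.5%), again near or below the background. SUV39H2 rose by 2.19 ± 0.51 and PRDM2 by 1.92 ± 0.30, while SUV39H1 changed by −1.26 ± 0.36 and SMYD3 by −0.86 ± 0.26. Further demethylases and their cofactors had 4 of 11 higher (36.4%), and the rest were not called. RCOR1, the CoREST scaffold of KDM1A, rose by 3.98 ± 0.65 and PHF2 by 3.67 ± 0.57.

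Histone chaperones had 1 of 10 genes lower (10%), and the rest were not called. DAXX, the partner of ATRX, was the one that fell, at 49.6 and 37.2 CPM in the sevoflurane libraries, against 87.9 and 75.3 CPM in the controls, a log2 fold change of −0.91 ± 0.28 (SE, adjusted p = 0.0405 by edgeR).

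**Figure D5:**
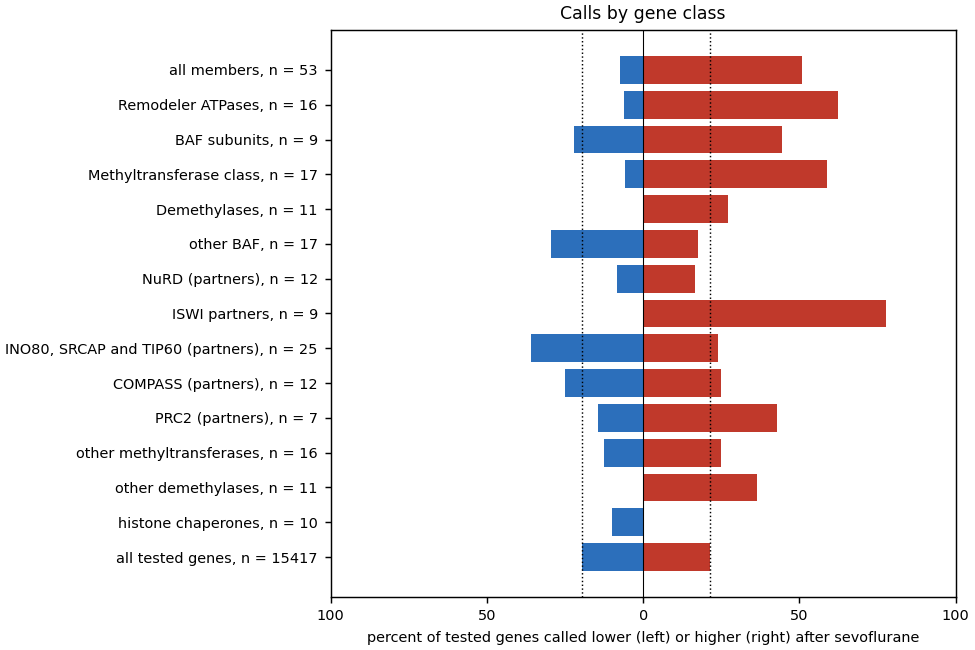
Percent of tested genes called higher (red, right) or lower (blue, left) after sevoflurane in the 53 members, their 4 classes, 9 lists of partner genes and all 15417 tested genes, with dotted lines at the values for all tested genes, 21.3% higher and 19.4% lower. Remodeler ATPases, methyltransferases and ISWI partners reach past the right line by the most, and the demethylases lie near it.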

How the data were processed

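The authors deposited raw read counts per Ensembl macaque gene ID, 1 column per library, for 2 sevoflurane and 2 control amygdala libraries. Reads were aligned with HISAT2, per the submitters' processing notes. The sources used here do not give its version, the counting program, strand setting, genome build or annotation. Groups came from the treatment labels and sex from the sex labels. Symbols came from a table of gene IDs that named 24173 of 35395 IDs.

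Genes were kept with edgeR 4.0.16 (R 4.3.3) filterByExpr at a minimum count of 10 by group, which left 15417, and scaled by TMM. Sevoflurane was compared with control by a quasi-likelihood F-test on condition alone (2 residual degrees of freedom), and male with female with condition and sex as terms (1 residual degree of freedom). Calls were made at a Benjamini-Hochberg adjusted p under 0.05 over all tested genes. Standard errors were derived from the F statistic, and changes within a sex are differences of log2 CPM with a prior count of 2. The pipeline was tested on simulated data in which few genes changed, as many up as down. That setting differs from these libraries, where 40.7% of tested genes were called, so it does not test the scaling used here. Since the labels do not say that libraries are separate animals, p-values measure the spread between these libraries, which within a condition includes sex.

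Alternatives were median-of-ratios size factors, library totals, other filters, DESeq2 1.42.0, sex as a term and leaving out each library. A test for a change of more than 2-fold (edgeR glmTreat) was added after seeing the data. The members, the 120 partner genes and the marker lists were chosen with earlier results of these data known, and ribosomal protein genes were picked by symbol after seeing the data. Values in every library are given for the 4 called members of largest change in each direction per class, every member called lower and fixed sets of paralogues, with a few others chosen after their values were seen. Of the partners, the 2 called genes of largest change in each direction per complex are named, with ACTL6B, TRRAP, WDR5, CHRAC1, POLE3 and EZHIP added after their values were seen. In the RefSeq annotation of another assembly, used only for which genes overlap, 36 of 53 members overlap another gene and 11 a protein-coding one, and such counts are uncertain. A comparison with protein length was planned and not run, since no protein table was used here.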

Additional observations from a re-analysis of the deposited data

Results flagged for a closer look

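In 6 members the changes of the sexes had opposite signs, with 1 library per sex and condition, so the difference between the sexes was not tested. The log2 fold change, sevoflurane over control, of KDM6B was 0.46 in females and −0.80 in males. SETD1B stood at 0.85 in females and −0.23 in males, and EZH2 at 0.51 in females and −0.40 in males. EHMT1 was at 0.15 in females and −0.69 in males, and SETDB1 at 0.010 in females and −0.31 in males. SMARCD1 was at −0.0018 in females and 0.14 in males. None of these 6 genes was called between the conditions.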

How the results depend on the processing

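Of the 31 called members, 21 were called in all 4 fits that left out 1 library, 19 of them higher. Without 1 library, 24 to 29 members were called, 21 to 26 higher and 2 to 3 lower, against 31, 27 and 4 with all libraries. Library totals gave 31 members called higher and 2 lower, and a change of more than 2-fold was called in 20 higher and 1 lower. Without 1 library 3469 to 5800 genes were called among all tested, 1967 to 3029 higher and 1502 to 2771 lower, the lowest each time without the sevoflurane male, and for more than 2-fold 3030 genes, 1891 higher and 1139 lower. Library totals gave 63.3% of called genes higher, against 52.3% with TMM, and moved the median log2 fold change to 0.24 over all tested genes and 1.25 over members. With no filter, 603 genes were called between the sexes, against 283. With sex as a term (the replicate block, since each condition has 1 female and 1 male library), 28 members were called higher and 4 lower, and KDM6B was at −0.16.

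Signs turned for uncalled members only. Over the fits without 1 library, the log2 fold change ranged from −0.30 to 0.53 for CHD5, −0.20 to 0.35 for SMARCD1, −0.34 to 0.013 for SMARCE1, −0.25 to 0.88 for SETD1B, −0.67 to 0.14 for EHMT1, −0.21 to 0.31 for EZH2, −0.033 to 0.10 for KDM2B and −0.93 to 0.59 for KDM6B. With library totals SMARCE1 was at 0.069, SETDB1 at 0.084 and EHMT1 at 0.023. The cause was not tested. Few reads lie behind EZH2, with 75 to 117 per library, and behind the controls of ARID2, with 14 and 1.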
